A study of Mus musculus with 24 samples.

Results

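The proteasome subunits and activators measured here were the 48 protein-coding genes whose symbols begin with Psma, Psmb, Psmc, Psmd, Psme, Psmf or Psmg followed by a digit, out of 21748 protein-coding genes and 78298 rows in the table, with the 3 interferon-inducible immunoproteasome genes Psmb8, Psmb9 and Psmb10 set apart. They were 8 alpha-ring genes (Psma1 to Psma8) and 8 constitutive beta-ring genes (Psmb1 to Psmb7 and Psmb11) of the core, 6 ATPases (Psmc1 to Psmc6) and 14 PSMD genes of the regulatory particle, 5 activator genes (Psme1, Psme2, Psme2b, Psme3, Psme4), the inhibitor Psmf1, the 4 assembly chaperones Psmg1 to Psmg4, and 2 genes that meet the naming rule but encode no subunit (Psmc3ip, a meiotic recombination factor, and Psme3ip1, a binding partner of the nuclear activator PA28-gamma). Of the 48, 46 reached 1 TPM (a gene's length-corrected share of its library) in at least 4 libraries and were tested. The other 2 were Psma8, the alpha subunit of testis proteasomes, with a mean of 0.51 TPM over the 24 libraries, and Psmb11, the beta subunit of thymus proteasomes, which was at most 0.02 TPM in any library.

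The proteasome degrades proteins tagged with ubiquitin. Its barrel-shaped 20S core is made of stacked alpha and beta rings, the proteolytic sites lie inside on the beta subunits Psmb5, Psmb6 and Psmb7, and the 19S regulatory particle at the barrel's end binds ubiquitin chains, removes them, and unfolds the protein with a ring of ATPases. Alternative caps (PA28 from Psme1 and Psme2, PA28-gamma from Psme3, PA200 from Psme4) open the core without ubiquitin, and interferon-gamma replaces the catalytic beta subunits with immunoproteasome forms and raises PA28 in many cell types. When proteasome capacity is short, the transcription factor NRF1 (gene Nfe2l1) is known to drive the subunit genes together through antioxidant response elements in their promoters.

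RNA was sequenced from the lungs of 24 C57BL/6 wild-type mice, 7 weeks old and labelled male, on an AIN-76A diet. Control mice (n = 4) drank filtered water without the extract and, by the treatment protocol, received sterile saline into the trachea, although a field of their labels lists the endotoxin. LPS mice (n = 5) received lipopolysaccharide (LPS, the endotoxin of Gram-negative bacteria) at 5 mg/kg into the trachea, and AEAA_low, AEAA_mid and AEAA_high mice (n = 5 each) had an aqueous extract of Artemisia argyi in their drinking water for 28 days before the same LPS dose, the low group at 0.5 mg/mL, the mid group at 1 mg/mL and the high group at 1.5 mg/mL. Lungs were taken 8 h after the challenge, and no group had the extract without LPS.

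Several facts of the libraries bear on every value below. The deposited values are TPM, so the sequencing depth is unknown and no counting interval can be given. Scaling the libraries to a common median ratio moved the median gene's LPS against Control difference from 0.55 to 0.00 on the log2 scale, so differences are given on the deposited TPM and after scaling, where they are relative to the typical gene. Lung epithelial markers summed to 285000 to 396000 TPM in Control and 72100 to 94000 TPM in LPS libraries. Most of that sum was the club cell gene Scgb1a1, with means of 282000 TPM in Control and 48800 TPM in LPS. By the limma tests used below, 2 of the 10 epithelial markers were lower in LPS on the deposited TPM and 4 after scaling. On the deposited TPM 6 of the 10 had a positive difference. The 10 neutrophil markers summed to 138 to 203 TPM in Control and 614 to 12700 TPM in LPS. In whole lung, a change in cell numbers and a change in RNA per cell cannot be told apart. Among challenged libraries, 7 had the LPS-inducible chemokine gene Cxcl2 below 2 TPM against 0.06 to 0.27 TPM in Control, namely LPS 2 and 4, AEAA_low 1, AEAA_mid 1 and 4, and AEAA_high 1 and 4. The X-inactivation transcript Xist stood at 25.8 to 95.5 TPM in all 24 libraries and the Y-linked gene Ddx3y at 0.02 TPM or less, against the sex on the labels.

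Promoter windows from RefSeq (build GRCm38.p6, 250 bases before to 50 after the gene start) were found for 40 of the 48 genes, some with more than 1 start. The following windows are examples chosen by hand, and all but Psmd11 hold a match to an element that is marked in capitals. They do not represent the 40 genes. They belong to the catalytic core subunits Psmb5 and Psmb6, the activator Psme4, the lid subunit Psmd11, and the PA28 subunit Psme1. Capitals mark the core of an antioxidant response element (TGACNNNGC) in Psmb5 (chr14:54617946-54618245, minus strand), Psmb6 (chr11:70525107-70525406, plus strand) and Psme4 (chr11:30771525-30771824, plus strand). They mark an interferon-stimulated response element (GAAA, any 2 bases, GAAA) in Psme1 (chr14:55578244-55578543, plus strand). In Psme4 and Psme1 the match is on the opposite strand, so the capitals read as the reverse complement, GCAGCGTCA and TTTCGCTTTC. Psmd11 (chr11:80428365-80428664, plus strand) has no match to the antioxidant core and is all in lower case.
Psmb5: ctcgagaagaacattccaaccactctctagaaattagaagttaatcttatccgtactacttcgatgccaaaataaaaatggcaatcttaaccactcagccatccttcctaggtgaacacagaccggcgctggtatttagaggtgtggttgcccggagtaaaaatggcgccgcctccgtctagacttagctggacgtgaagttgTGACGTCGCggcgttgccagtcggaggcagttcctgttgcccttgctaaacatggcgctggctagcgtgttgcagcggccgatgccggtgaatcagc
Psmb6: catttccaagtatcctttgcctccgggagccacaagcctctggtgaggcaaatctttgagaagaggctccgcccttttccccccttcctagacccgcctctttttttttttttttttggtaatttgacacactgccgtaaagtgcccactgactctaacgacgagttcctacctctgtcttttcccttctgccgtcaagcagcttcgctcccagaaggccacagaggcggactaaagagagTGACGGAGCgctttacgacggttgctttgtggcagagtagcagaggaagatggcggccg
Psme4: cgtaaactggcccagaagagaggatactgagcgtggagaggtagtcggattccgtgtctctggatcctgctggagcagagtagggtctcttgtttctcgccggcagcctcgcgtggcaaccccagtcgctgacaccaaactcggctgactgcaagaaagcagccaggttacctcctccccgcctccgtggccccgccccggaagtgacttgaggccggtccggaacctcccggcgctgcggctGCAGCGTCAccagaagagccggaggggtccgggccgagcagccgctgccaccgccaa
Psmd11: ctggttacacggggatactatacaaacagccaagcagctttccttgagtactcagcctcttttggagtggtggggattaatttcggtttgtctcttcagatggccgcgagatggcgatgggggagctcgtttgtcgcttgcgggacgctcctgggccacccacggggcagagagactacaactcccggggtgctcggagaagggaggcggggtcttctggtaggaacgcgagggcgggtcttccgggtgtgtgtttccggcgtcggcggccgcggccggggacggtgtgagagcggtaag
Psme1: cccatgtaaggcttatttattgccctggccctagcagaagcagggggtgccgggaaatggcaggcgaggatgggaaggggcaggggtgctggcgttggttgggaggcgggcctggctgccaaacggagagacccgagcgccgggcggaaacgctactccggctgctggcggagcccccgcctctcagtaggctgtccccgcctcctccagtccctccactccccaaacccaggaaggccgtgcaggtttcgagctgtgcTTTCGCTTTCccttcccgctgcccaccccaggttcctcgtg
Counted from the gene start, the antioxidant matches began at −47 in Psmb5, −9 in Psmb6 and −7 in Psme4, and the interferon match of Psme1 at 9. Searched on both strands, the antioxidant core was in a window of 6 of the 40 genes (Psmb5, Psmb6, Psmc6, Psmd9, Psmd12 and Psme4), which is 15% against 14% of 27025 RefSeq genes with windows of this length. The interferon-stimulated element was in 5 genes (Psmb3, Psmd4, Psmd9, Psme1 and Psmg4), 12.5% against 4.0%. The interferon-gamma site TTCNNNGAA was in 2, 5.0% against 9.6%. The NF-Y box CCAAT was in 15, 37.5% against 41.1%. The GC box GGGCGG was in 23, 57.5% against 38.2%. These are matches of letters and not measured binding, and the antioxidant core was about as frequent among proteasome genes as among all genes.

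The first comparison asked what LPS alone did to these genes in the lung. On the deposited TPM, 44 of the 46 tested proteasome genes rose and none fell (44 had an unadjusted p of 0.05 or less), while 56.2% of all 17823 genes tested rose and 1.86% fell. Their median log2 difference was 0.80, against 0.55 for all genes, and 43 of 46 had every LPS library above every Control library, as 49.7% of all genes did. After scaling 13 had every LPS library above and 3 (Psma3, Psmd9, Psmg2) every LPS library below all Control libraries, against 14.2% and 13.5% of all genes. By the limma test, 9 rose and 1 fell after scaling, against 13.8% and 14.2% of all genes, with a median of 0.14 against 0.00. The genes that rose on both scales were mainly those of the 19S particle: 6 PSMD subunits (Psmd1, Psmd2, Psmd3, Psmd8, Psmd11, Psmd14), the ATPase Psmc2 and the activators Psme3 and Psme4, while none of the 14 core subunits did so after scaling. All tests were limma moderated tests on log2(TPM + 1) with Benjamini-Hochberg adjustment over all genes, and fold changes are on that scale. Without Scgb1a1, the club cell secretory gene that took the largest share of the Control libraries, and with the rest rescaled, 30 of the 46 rose, against 31.0% of all genes. Other marker lists were also looked at in this comparison, where 56.2% of all genes rose on the deposited TPM and 13.8% after scaling. Of 10 monocyte and macrophage genes 7 rose (after scaling 1 rose and 1 fell). All 8 cell cycle genes rose (4 after scaling). Of 5 endothelial genes 3 rose (2 after scaling). Their sum went from 649 to 950 TPM in Control to 1370 to 1910 TPM in LPS. Of 5 cardiac muscle genes 1 fell on the deposited TPM and 4 after scaling, against 1.86% and 14.2% of all genes. The skeletal muscle gene Acta1 was at 1990 TPM in LPS 1 and 1296 TPM in LPS 3, against 0.69 TPM or less in the other LPS libraries. The part of these marker levels in the proteasome values was not tested.

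**Figure D1:**
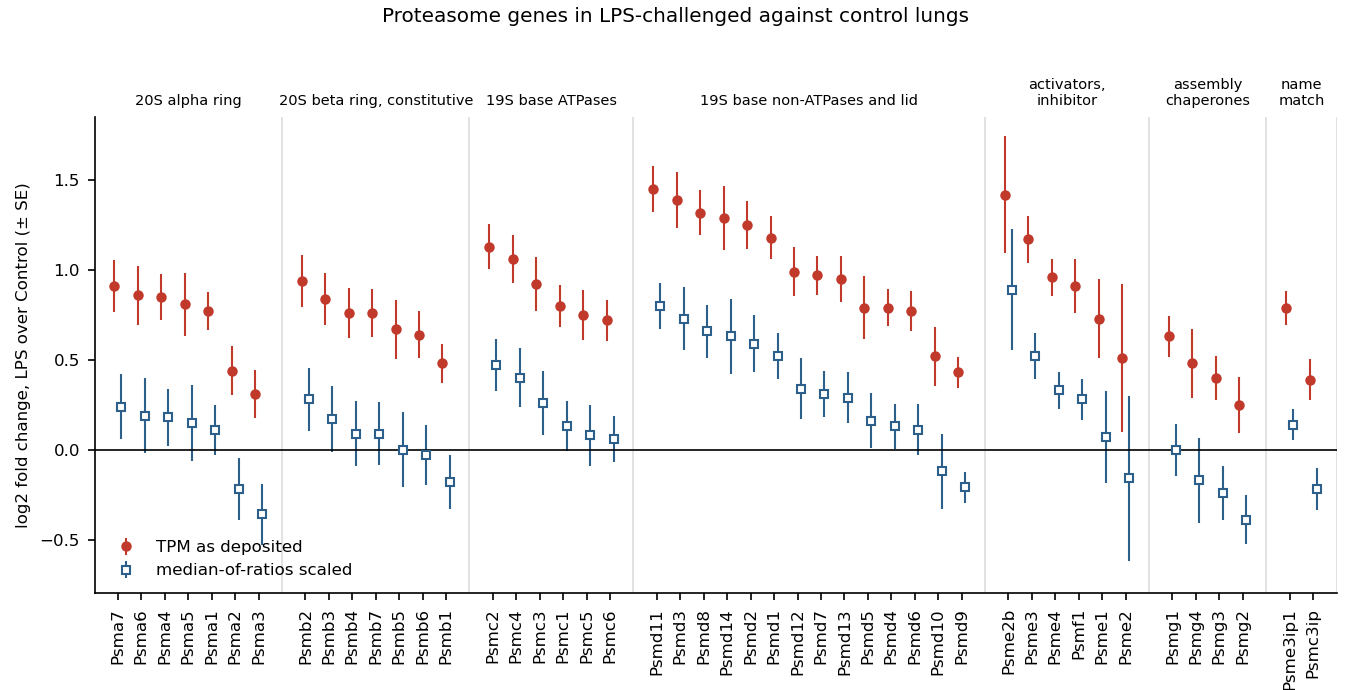
Log2 difference between LPS (n = 5) and Control (n = 4) lungs for each of the 46 tested proteasome genes, by role in the complex, on the deposited TPM and after scaling, with standard errors. On the deposited TPM all differences are above 0, and after scaling the PSMD subunits without chaperones (median 0.52) sit above the core subunits (median 0.10).

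The 20S core genes were more abundant, on average, than those of the 19S particle. The mean over its 14 tested genes was 105 ± 5.32 TPM (SD, n = 4) in Control and 177 ± 14.6 TPM (SD, n = 5) in LPS lungs, with ranges of 101 to 113 and 162 to 194. The groups did not overlap. All 14 rose on the deposited TPM, as 56.2% of all genes did, with a median log2 difference of 0.77 (0.55 for all genes). None of the 14 passed the limma test after scaling, where 13.8% of all genes rose. There the median was 0.10 and 1 had an unadjusted p of 0.05 or less. With a trend over transcript length removed from each library, 7 of the 14 rose, against 14.8% of all genes.

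In the alpha ring, which gates the entry to the barrel, Psma7 and Psma6 differed most. Psma7 stood at 135, 149, 139 and 145 TPM in the Control lungs and at 289, 225, 267, 258 and 303 TPM in the LPS lungs. No LPS library was as low as any Control library, and the log2 difference was 0.91 ± 0.15 (SE, adjusted p = 1.7e-05), or 0.24 (adjusted p = 0.32) after scaling. Psma6 stood at 114, 119.6, 109 and 109 TPM in Control and 227, 182, 223, 187 and 214 TPM in LPS, again without overlap, a difference of 0.86 ± 0.16 (SE, adjusted p = 0.00012), or 0.19 (adjusted p = 0.49) after scaling. Psma3 had the smallest difference of the ring. It read 106, 116, 101 and 100.2 TPM in Control and 139, 129, 131, 137 and 119.7 TPM in LPS, with every LPS library above every Control library. Its log2 difference was 0.31 ± 0.13 (SE, adjusted p = 0.048) on the deposited TPM, but −0.36 after scaling (adjusted p = 0.12), and its call was lost when any of 7 of the 9 libraries (all but Control 2 and LPS 5) was left out, with adjusted p from 0.064 to 0.1. Psma2, the least abundant of the ring, went from 41.8 ± 2.73 TPM to 57.1 ± 2.47 TPM (SD, n = 4 and 5), a difference of 0.44 ± 0.14 (SE, adjusted p = 0.0077), or −0.22 (adjusted p = 0.34) after scaling.

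In the beta ring the largest differences were those of Psmb2 and Psmb3, structural subunits without a protease site. Psmb2 read 77.8, 89.5, 76 and 83.8 TPM in Control and 162, 145, 163, 150.4 and 169 TPM in LPS. These groups lay well apart, with a log2 difference of 0.94 ± 0.14 (SE, adjusted p = 9.2e-06), and 0.28 (adjusted p = 0.24) after scaling. Psmb3 differed by 0.84 ± 0.14 (SE, adjusted p = 3.9e-05), or 0.17 (adjusted p = 0.5) after scaling. The catalytic subunit Psmb6, the most abundant of the ring, read 149, 156, 157 and 167 TPM in Control and 293, 205, 222, 231 and 286 TPM in LPS. Its difference of 0.64 ± 0.13 (SE, adjusted p = 0.00023) became −0.03 (adjusted p = 0.91) after scaling. Psmb5, which carries the chymotrypsin-like site, read 119, 135, 122 and 129 TPM and 245, 169, 187, 181 and 235 TPM, with LPS 2 the lowest LPS library, and differed by 0.67 ± 0.17 (SE, adjusted p = 0.0014), or 0.00 (adjusted p = 0.99) after scaling. Psmb1 had the smallest difference of the ring, 0.48 ± 0.11 (SE, adjusted p = 0.00054), and −0.18 (adjusted p = 0.38) after scaling.

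The 19S regulatory particle differed more. Over its 17 tested subunits (6 ATPases and 11 PSMD subunits, leaving out the base chaperones Psmd5, Psmd9 and Psmd10), the mean was 56.8 ± 3.78 TPM (SD, n = 4) in Control and 116 ± 7.54 TPM (SD, n = 5) in LPS lungs. The naming rule misses the 19S subunits Adrm1 and Sem1. Adrm1 had means of 41.7 TPM in Control and 94.8 TPM in LPS, and Sem1 46.8 and 41.3 TPM. All 17 rose on the deposited TPM, as 56.2% of all genes did, with a median of 0.99 against 0.55 for all genes. After scaling 7 rose, against 13.8% of all genes, 9 had an unadjusted p of 0.05 or less, and the median was 0.34. The 11 PSMD subunits had a median of 1.18, or 0.52 after scaling, and 9 of them had every scaled LPS value above every scaled Control value, where 14.2% of all genes did. The 6 ATPases had medians of 0.86 and 0.19.

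Psmd11, a lid subunit that links the lid to the core and whose level is known to limit assembly of the complete particle in some cells, differed most of all 19S genes. It read 21.3, 27.3, 26.5 and 26.7 TPM in the Control lungs and 66.8, 70.6, 70.3, 76.7 and 69.9 TPM in the LPS lungs. The lowest LPS library was above the highest Control library by a wide margin, and the means were 25.4 ± 2.78 TPM (SD, n = 4) and 70.9 ± 3.59 TPM (SD, n = 5). The log2 difference was 1.45 ± 0.13 (SE, adjusted p = 3.9e-08), and 0.80 (adjusted p = 0.0002) after scaling. Psmd3, another lid subunit, read 38.9, 43.7, 41.2 and 46.5 TPM and 119.9, 90.2, 122, 99.6 and 139.6 TPM. LPS 2 and LPS 4 were the lowest of the LPS group and still above all Controls, and the difference was 1.39 ± 0.16 (SE, adjusted p = 3.2e-07), or 0.73 (adjusted p = 0.0049) after scaling. Psmd8 read 65.6, 73.9, 72.6 and 70 TPM and 169, 168, 174, 176 and 203 TPM. LPS 5 stood above the other LPS libraries, and the difference was 1.32 ± 0.13 (SE, adjusted p = 6.7e-08), or 0.66 (adjusted p = 0.0027) after scaling.

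Psmd14 is the deubiquitinase that removes the ubiquitin chain before degradation. It read 29.6, 31.5, 33.3 and 27.4 TPM in Control and 79.2, 67.2, 76, 78.5 and 77.2 TPM in LPS lungs. There was no overlap, and the difference was 1.29 ± 0.18 (SE, adjusted p = 2.4e-06), or 0.63 (adjusted p = 0.029) after scaling. The large scaffold subunits of the base were also higher. Psmd1 read 32, 38.1, 36.1 and 37 TPM and 81.5, 86.3, 77.6, 82.3 and 82.9 TPM, a difference of 1.18 ± 0.12 (SE, adjusted p = 9.4e-08) and 0.52 (adjusted p = 0.0052) after scaling. Psmd2 read 53.4, 58.8, 54.4 and 57.1 TPM and 142, 120.2, 137, 124 and 150.3 TPM, a difference of 1.25 ± 0.13 (SE, adjusted p = 1.5e-07) and 0.59 (adjusted p = 0.0088) after scaling. Psmd4, a ubiquitin receptor of the particle, differed by 0.79 ± 0.10 (SE, adjusted p = 1.4e-06), and by 0.13 (adjusted p = 0.46) after scaling.

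Of the ATPases, Psmc2 differed most. It read 39.4, 45.5, 44.5 and 45.5 TPM in Control and 97, 82.2, 105, 97.5 and 102 TPM in LPS. Control 1 was the lowest Control library, no values overlapped, and the difference was 1.13 ± 0.12 (SE, adjusted p = 2.3e-07), or 0.47 (adjusted p = 0.022) after scaling. Psmc4 followed with 1.06 ± 0.13 (SE, adjusted p = 8.9e-07), or 0.40 (adjusted p = 0.071) after scaling. Psmc6 was at the other end with 0.72 ± 0.11 (SE, adjusted p = 1.4e-05), or 0.06 (adjusted p = 0.76) after scaling, and Psmc3, the most abundant of the ring, lay between with 0.92 ± 0.15 (SE, adjusted p = 1.9e-05), or 0.26 (adjusted p = 0.28) after scaling.

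**Figure D2:**
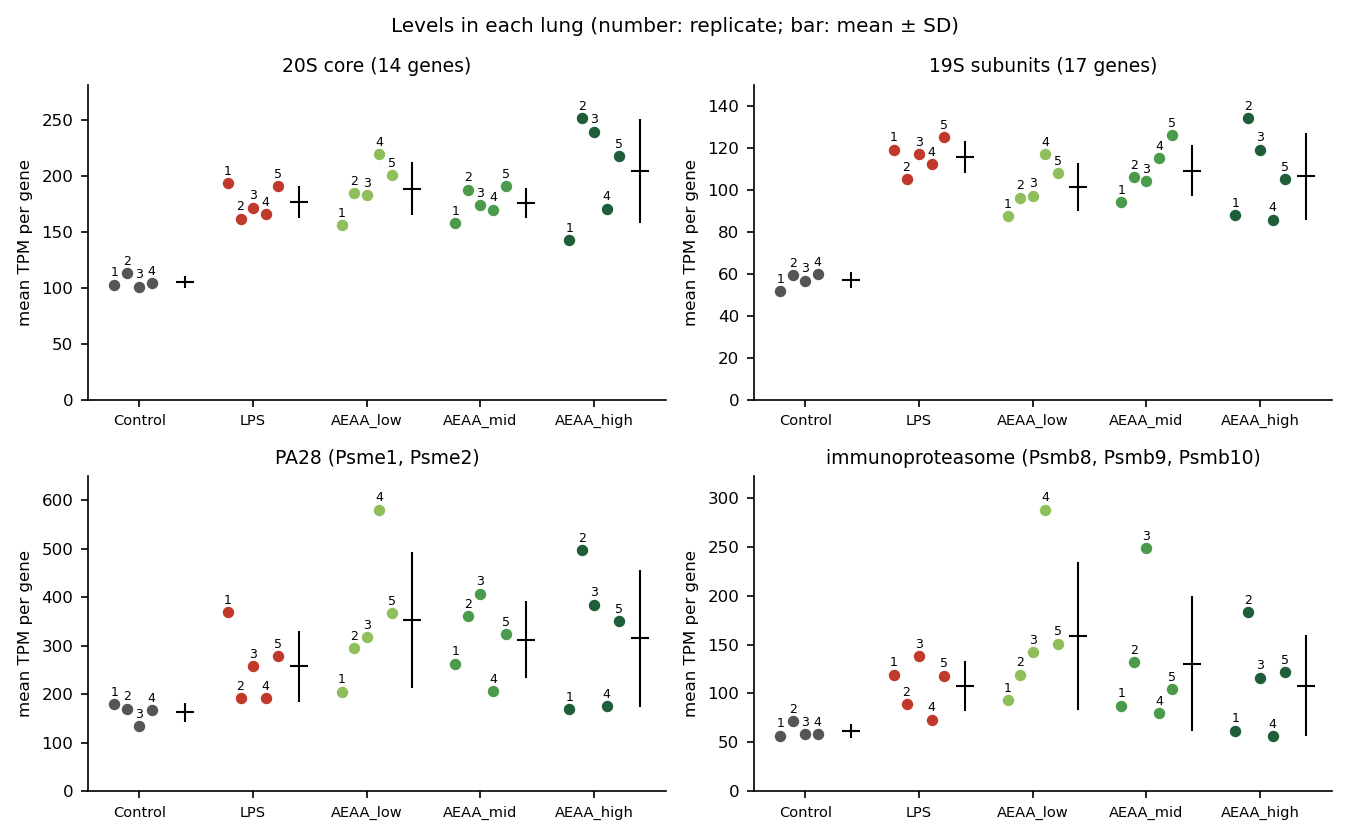
Mean TPM per gene of the 20S core, the 19S subunits, PA28 (Psme1, Psme2) and the immunoproteasome (Psmb8, Psmb9, Psmb10) in each of the 24 libraries by group; numbers are replicates and bars the mean ± SD. The 20S mean runs from 101 to 113 in Control and 162 to 194 in LPS, and in AEAA_high it spreads from 143 to 252.

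The activators and the inhibitor moved unevenly. On the deposited TPM 5 of 6 were higher, against 56.2% of all genes, and after scaling 2 of 6, against 13.8%. Psme3, the nuclear activator PA28-gamma, read 20.9, 31.6, 28 and 28.7 TPM in Control and 56.9, 63.8, 65.2, 64.5 and 60 TPM in LPS. The groups were far apart, with a difference of 1.17 ± 0.13 (SE, adjusted p = 2.4e-07), or 0.52 (adjusted p = 0.0059) after scaling. Psme4, the PA200 cap, read 10.4, 12.8, 12.4 and 11.3 TPM and 22.7, 26.8, 21.8, 24.9 and 22.9 TPM, a difference of 0.96 ± 0.10 (SE, adjusted p = 1.9e-07), or 0.33 (adjusted p = 0.02) after scaling. Psmf1, which encodes the inhibitor and transport factor PI31, read 12, 14.7, 13.3 and 13.7 TPM and 22, 26.4, 23.1, 30.7 and 29.6 TPM. It did not overlap between groups and differed by 0.91 ± 0.15 (SE, adjusted p = 2.1e-05), but by 0.28 (adjusted p = 0.071) after scaling.

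The 2 PA28 subunits that are known interferon-gamma targets were variable among LPS lungs. Psme1 read 151, 174, 150.3 and 165 TPM in Control and 322, 218, 280.5, 228 and 299.9 TPM in LPS, without overlap, a difference of 0.73 ± 0.22 (SE, adjusted p = 0.0067) and 0.07 (adjusted p = 0.86) after scaling. Psme2 read 207, 165, 118 and 168 TPM and 417, 166, 234, 155 and 256 TPM. LPS 2 and LPS 4 lay within the Control range, LPS 1 stood at the top, and the difference of 0.51 ± 0.41 (SE, adjusted p = 0.3), or −0.16 (adjusted p = 0.82) after scaling, did not pass the test. Psme2b, a gene for a near-identical copy of the PA28-beta subunit, read 2.13, 4.29, 2.01 and 2.63 TPM and 8.1, 3.81, 18.4, 8.83 and 9.86 TPM. Its difference was 1.42 ± 0.32 (SE, adjusted p = 0.00073), or 0.89 (adjusted p = 0.052) after scaling, and LPS 2 fell below Control 2. How the authors' counting split reads between Psme2 and Psme2b is not given in the sources used here, so the level of Psme2b is uncertain.

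On the deposited TPM, the 4 Psmg assembly chaperones had the smallest median difference of the groups of proteasome genes. The Psmg genes, which help the alpha ring form, had a median of 0.44 on the deposited TPM. There 3 of 4 were higher, against 56.2% of all genes. After scaling their median was −0.21, with none of 4 positive and 1 lower, against 14.2% of all genes lower. Psmg2 read 17.1, 24.4, 20.6 and 19.1 TPM in Control and 23.1, 31.1, 21.3, 29 and 18.7 TPM in LPS. The groups overlapped, and the difference was 0.25 ± 0.16 (SE, adjusted p = 0.17) on the deposited TPM and −0.39 (adjusted p = 0.039) after scaling, where it was the only proteasome gene that fell. That call was lost without Control 1, 2 or 3 or LPS 1, 3 or 5, each left out alone. Psmg1 differed by 0.63 ± 0.12 (SE, adjusted p = 7.2e-05), and by −0.0031 (adjusted p = 0.99) after scaling. Psmg4, the most abundant of the 4, differed by 0.48 ± 0.19 (SE, adjusted p = 0.034), and by −0.17 (adjusted p = 0.6) after scaling. The call for Psmg4 was lost without Control 3 or 4 or LPS 1, 3 or 5, with adjusted p from 0.056 to 0.1. Of the base chaperones, Psmd9 read 13.8, 15, 16.5 and 14.7 TPM in Control and 17.6, 22.6, 20.7, 20.1 and 21.6 TPM in LPS. It did not overlap on that scale and differed by 0.43 ± 0.09 (SE, adjusted p = 0.00026), and by −0.21 (adjusted p = 0.069) after scaling. Psmd5 differed more, by 0.79 ± 0.18 (SE, adjusted p = 0.00054), and by 0.16 (adjusted p = 0.43) after scaling. Psmd10 differed by 0.52 ± 0.16 (SE, adjusted p = 0.0096), and by −0.12 (adjusted p = 0.68) after scaling. The name-matched genes Psmc3ip and Psme3ip1 differed by 0.39 ± 0.12 (SE, adjusted p = 0.0068) and 0.79 ± 0.10 (SE, adjusted p = 6.7e-07), and neither passed after scaling.

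The 19S to 20S ratio of mean TPM needs no scaling between libraries, since any factor common to a library cancels. It was 0.5, 0.527, 0.56 and 0.573 in the Control lungs and 0.611, 0.652, 0.678, 0.677 and 0.654 in the LPS lungs. Every LPS lung was above every Control lung, and the means were 0.540 ± 0.033 (SD, n = 4) and 0.654 ± 0.0272 (SD, n = 5). The ratio of the PSMD subunits to the core went from a mean of 0.464 to 0.601, and that of the ATPases to the core from 0.679 to 0.752, with 1 Control and 1 LPS library both at 0.723. Since the ratio was looked at after the subunit folds were known, it is a description and carries no test. Its 19S part leaves out Adrm1 and Sem1, which the naming rule misses.

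**Figure D3:**
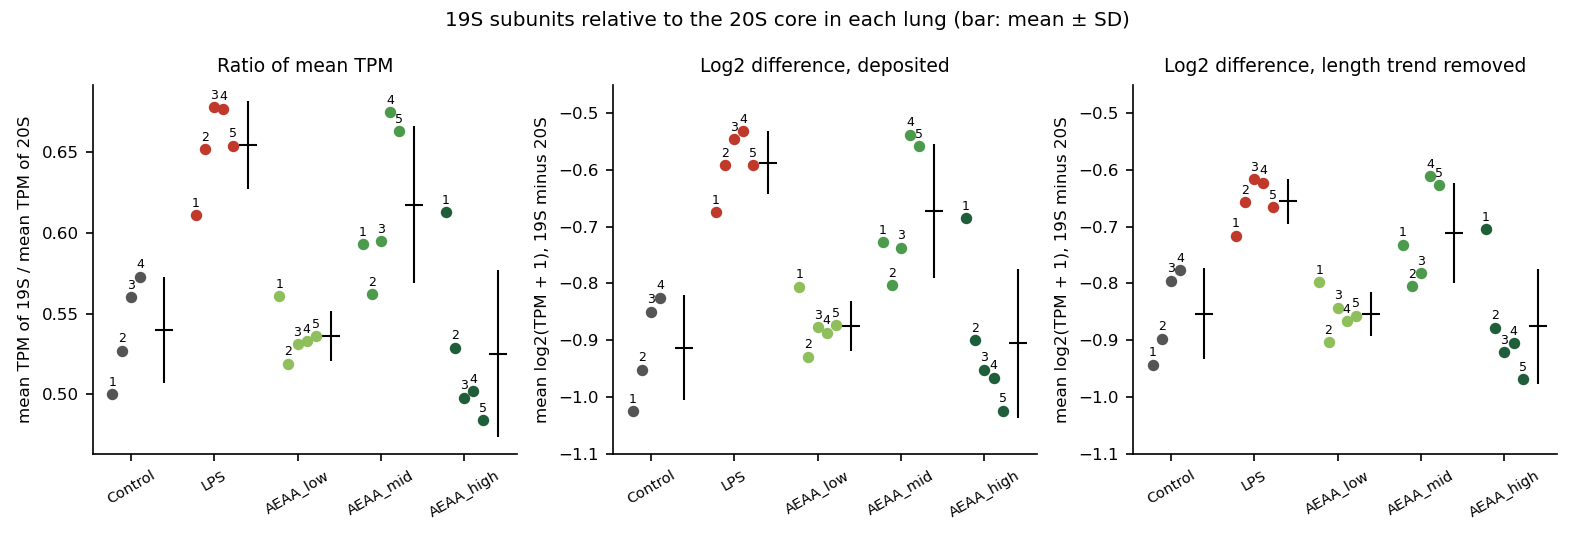
Ratio of the mean TPM of 17 19S genes to the mean TPM of 14 core genes in each library, by group, with the difference of mean log2(TPM + 1) on the deposited TPM and with the length trend removed beside it; bars are the mean ± SD. The LPS libraries lie at 0.611 to 0.678, above all Control (0.5 to 0.573) and all AEAA_low libraries (0.519 to 0.561).

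Transcript length differed between the parts of the complex and moved with the folds. The longest annotated transcript had a median of 1220 nt for core genes, 1983 nt for 19S genes and 3017 nt for all tested genes. Across 16407 genes with a length, the scaled LPS against Control difference and length had a Spearman rho of 0.18, and across the 46 proteasome genes 0.28; genes are not independent replicates, and these are descriptions. With a smooth trend over length removed from each library, 23 proteasome genes rose in LPS, against 14.8% of all genes. The medians were then 0.44 for the core and 0.50 for the 19S genes. On that scale the log2 difference between 19S and core was −0.943 to −0.777 in Control and −0.716 to −0.617 in LPS lungs, so the groups stayed apart, by less than on the deposited TPM (−1.025 to −0.825 and −0.675 to −0.532).

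**Figure D4:**
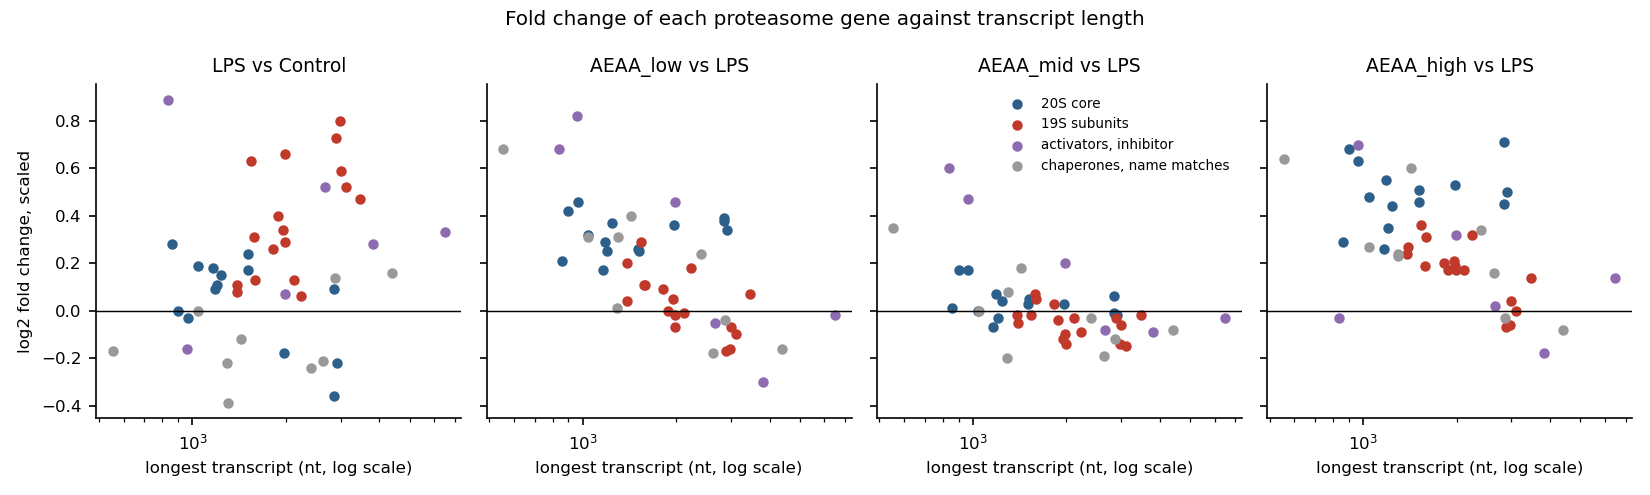
Scaled log2 difference against longest annotated transcript length in nt (log axis) for the 46 tested proteasome genes, coloured by role, in LPS against Control and in each extract group against LPS. The Spearman rho is 0.28 for LPS, −0.65 for AEAA_low, −0.57 for AEAA_mid and −0.57 for AEAA_high.

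The next comparisons asked whether the extract, given before LPS, changed the lungs' response, and all 3 doses were set against the same 5 LPS libraries, so their values are not independent. At the low dose, 3 of 46 proteasome genes fell and none rose on the deposited TPM, against 9.38% and 1.23% of all genes, and 13 had an unadjusted p of 0.05 or less. The median was −0.04, against −0.20 for all genes, and 3 genes (Psmd8, Psmd9, Psmd13) had every AEAA_low library below every LPS library, as 8.92% of all genes did. After scaling none passed in either direction (0.55% lower and 1.74% higher among all genes), with 12 at an unadjusted p of 0.05 or less. Of the 5 endothelial markers, 3 were lower on the deposited TPM, against 9.38% of all genes, and none after scaling. Their sums were 1020 to 1410 TPM against 1370 to 1910 in LPS, and their part in the proteasome values was not tested. The core genes had a median of 0.33 after scaling (14 of 14 positive), 0.11 on the deposited TPM and 0.14 with the length trend removed. The 19S genes had a median of 0.04 after scaling, −0.18 on the deposited TPM (1 of 17 positive) and −0.06 with the length trend removed, so their direction turned with the scale.

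Psmd9, the base chaperone, was among the 3. It read 15.9, 14.6, 15.3, 15.8 and 14.8 TPM in the AEAA_low lungs, where the LPS lungs had 17.6 to 22.6 TPM. The groups did not overlap, and the difference was −0.40 ± 0.08 (SE, adjusted p = 0.013), or −0.18 (adjusted p = 0.27) after scaling. Leaving out any of the 10 libraries in turn kept this call on the deposited TPM, with adjusted p from 0.0072 to 0.039. Psmf1 read 18.6, 16, 18.7, 23.2 and 14.5 TPM against 22, 26.4, 23.1, 30.7 and 29.6 TPM in LPS. AEAA_low 4 lay within the LPS range and the other low-dose libraries below it, and the difference was −0.52 ± 0.14 (SE, adjusted p = 0.027), or −0.30 (adjusted p = 0.16) after scaling. Psmd11 read 45.7, 46.4, 53.4, 68.8 and 58 TPM, with only AEAA_low 4 inside the LPS range, and differed by −0.39 ± 0.12 (SE, adjusted p = 0.043), or −0.16 (adjusted p = 0.53) after scaling. The Psmf1 call was lost without LPS 4 or 5 or AEAA_low 2, 3 or 5 (adjusted p from 0.052 to 0.075). The Psmd11 call was lost without any of 8 libraries (all but LPS 1 and AEAA_low 4), with adjusted p from 0.058 to 0.12.

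The 19S to 20S ratio in the AEAA_low lungs was 0.561, 0.519, 0.531, 0.533 and 0.536, below all LPS lungs and within the Control range. The core mean was 189 ± 23.7 TPM (SD, n = 5), against 177 ± 14.6 in LPS, and the 19S mean was 101 ± 11.5 TPM against 116 ± 7.54. The separation from LPS held with the length trend removed, where the log2 difference between 19S and core was −0.903 to −0.798 in AEAA_low and −0.716 to −0.617 in LPS. At this dose the scaled differences of all genes had a Spearman rho with length of −0.28, and those of the proteasome genes −0.65.

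At the mid dose no proteasome gene passed in limma in either direction, on the deposited TPM or after scaling, and none of the 17823 genes did (0.0%). At an unadjusted p of 0.05 or less there were 2 proteasome genes on the deposited TPM and 1 after scaling, against 625 and 541 of all genes. Those with the smallest p were Psmd9, with 15.8, 17.1, 19.8, 16.3 and 16.9 TPM and a difference of −0.24 ± 0.08 (SE, adjusted p = 1.0), and Psmc3ip, with −0.25 ± 0.11 (SE, adjusted p = 1.0). The Psmd9 values overlapped those of the LPS lungs. The 19S to 20S ratio was 0.593, 0.562, 0.595, 0.675 and 0.663, from below the LPS range to near its top.

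At the high dose the calls depended on the scale. On the deposited TPM, 1 gene rose (Psma3) and 4 fell (Psme3ip1, Psmf1, Psmd11, Psmd1), against 2.05% and 25.5% of all genes, with a median of −0.05 against −0.27. In 2 genes (Psmd11, Psme3ip1) every AEAA_high library was below every LPS library, as in 9.47% of all genes. After scaling, 5 core genes rose (Psma3, Psmb6, Psmb1, Psmb5, Psmb4) and none fell, against 5.67% and 3.27% of all genes, and 18 had an unadjusted p of 0.05 or less. The median was 0.26 against −0.01 for all genes. The core genes had a median of 0.49 after scaling (14 of 14 positive), 0.17 on the deposited TPM (12 of 14) and 0.30 with the length trend removed. The 19S genes had a median of 0.19 after scaling, 0.06 with the length trend removed, and −0.13 on the deposited TPM (2 of 17 positive), so their direction turned with the scale. Of the 5 endothelial markers, 3 were lower on the deposited TPM and 1 after scaling, with sums of 975 to 1270 TPM, and their part was not tested. With the length trend removed, Psma3 alone rose, against 2.88% of all genes.

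Psma3, an alpha-ring subunit, read 121, 195, 212, 160.5 and 189 TPM in the AEAA_high lungs, against 139, 129, 131, 137 and 119.7 TPM in LPS. AEAA_high 1 was within the LPS range and the other AEAA_high libraries above it. The difference was 0.39 ± 0.12 (SE, adjusted p = 0.023), or 0.71 ± 0.16 (SE, adjusted p = 0.0095) after scaling, and 0.67 (adjusted p = 0.02) with the length trend removed. On the deposited TPM its call was lost without LPS 5 or AEAA_high 2, 3 or 5 (adjusted p from 0.054 to 0.073). The catalytic subunit Psmb6 read 231, 390.2, 353, 256 and 318 TPM. AEAA_high 1 and 4 lay within the LPS range of 205 to 293 TPM, and the scaled difference was 0.63 ± 0.16 (SE, adjusted p = 0.017), against 0.31 ± 0.12 (SE, adjusted p = 0.062) on the deposited TPM. Psmb5 read 162, 325, 319, 223 and 307 TPM, with AEAA_high 1 below all LPS libraries, AEAA_high 4 inside their range and the others above it. Its scaled difference was 0.68 ± 0.20 (SE, adjusted p = 0.033), against 0.36 ± 0.15 (SE, adjusted p = 0.087) on the deposited TPM. Psmb1 and Psmb4 differed by 0.53 ± 0.14 (SE, adjusted p = 0.024) and 0.55 ± 0.17 (SE, adjusted p = 0.046) after scaling, against 0.21 ± 0.10 (SE, adjusted p = 0.13) and 0.23 ± 0.13 (SE, adjusted p = 0.18) on the deposited TPM.

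The number of scaled calls rested on single libraries. It went from 5 to 21 without AEAA_high 1, and to 1 without AEAA_high 2, 3 or 5, and it was 3 without LPS 2 or 3 and 2 without LPS 4. On the deposited TPM the count of genes that rose went from 1 to 9 without AEAA_high 1, to 3 without LPS 1 and to 2 without AEAA_high 4. It was 0 without AEAA_high 2, 3 or 5. The shares of all genes called in these fits are not given here, so these counts cannot be read as particular to proteasome genes.

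Of the genes lower at the high dose, Psme3ip1 read 31, 27.7, 26, 24.9 and 29.2 TPM against 31, 40.3, 36, 35.4 and 33.9 TPM in LPS, where AEAA_high 1 at 31.01 TPM was just below LPS 1 at 31.04 TPM and no values overlapped. It differed by −0.34 ± 0.09 (SE, adjusted p = 0.01), or −0.03 (adjusted p = 0.88) after scaling. Psmf1 read 23.3, 18.6, 16.4, 18.9 and 16 TPM. Only AEAA_high 1 was inside the LPS range, and the difference was −0.48 ± 0.14 (SE, adjusted p = 0.016), or −0.18 (adjusted p = 0.34) after scaling. Psmd11 read 50.2, 63, 63.5, 47.3 and 50.4 TPM, all below the lowest LPS library, and differed by −0.37 ± 0.12 (SE, adjusted p = 0.027), or −0.06 (adjusted p = 0.82) after scaling; its call was lost without LPS 4 or AEAA_high 4 or 5 (adjusted p from 0.066 to 0.067). Psmd1 read 58.1, 76.5, 77.7, 55.2 and 65.1 TPM. It differed by −0.31 ± 0.11 (SE, adjusted p = 0.041) on the deposited TPM and by 0.0016 after scaling, and its call was lost without any of 7 of the 10 libraries (all but LPS 3 and AEAA_high 2 and 3), with adjusted p from 0.053 to 0.11. The count of 4 genes was 2 without LPS 4, AEAA_high 4 or AEAA_high 5.

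**Figure D5:**
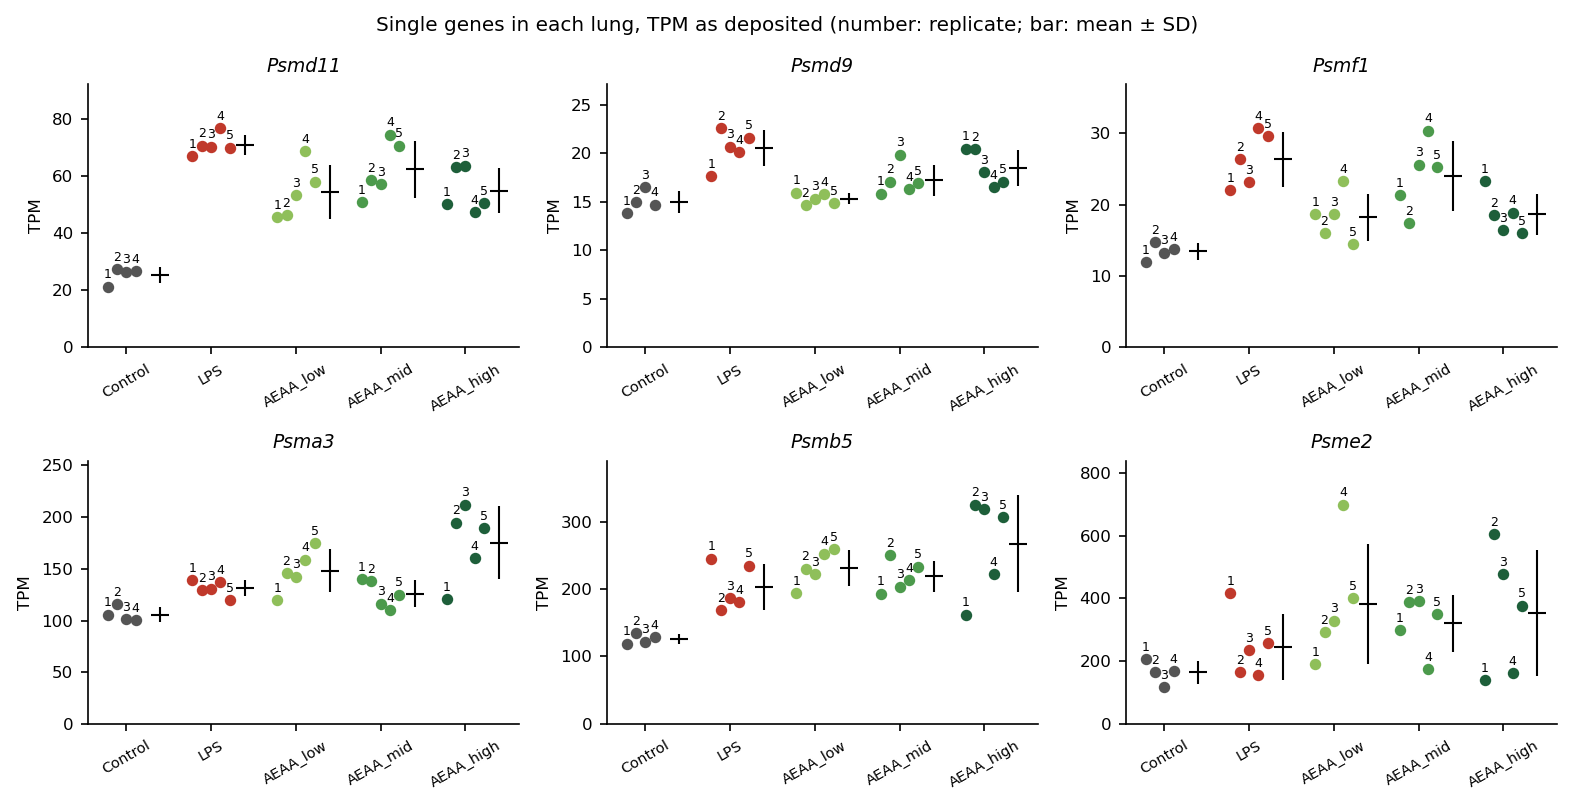
TPM of Psmd11, Psmd9, Psmf1, Psma3, Psmb5 and Psme2 in each of the 24 libraries by group; numbers are replicates and bars the mean ± SD. Psmd11 runs from 21.3 to 27.3 in Control, 66.8 to 76.7 in LPS and 47.3 to 63.5 in AEAA_high, while Psme2 spans 139 to 604 in AEAA_high.

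The 19S to 20S ratio of the AEAA_high lungs was 0.613, 0.529, 0.498, 0.502 and 0.484. AEAA_high 1 was at the bottom of the LPS range and the other libraries below it, within or under the Control range. With the length trend removed, the log2 difference between 19S and core was −0.969 to −0.705 in AEAA_high and −0.716 to −0.617 in LPS, so the groups overlapped through 1 library. The core mean spread from 143 to 252 TPM over these 5 lungs, against 162 to 194 in LPS.

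Across the doses from LPS alone (0 mg/mL) to 1.5 mg/mL, 1 proteasome gene fell and none rose with dose on the deposited TPM, against 7.63% and 0.774% of all genes, and 6 had an unadjusted p of 0.05 or less. It was Psme3ip1, at −0.18 ± 0.06 (SE, adjusted p = 0.049) per mg/mL, and that call was lost when any of 16 of the 20 libraries (all but LPS 1, AEAA_low 2, AEAA_mid 4 and AEAA_high 1) was left out, with adjusted p from 0.054 to 0.1. After scaling none passed in limma (0.32% lower and 1.32% higher among all genes), and 11 had an unadjusted p of 0.05 or less. Without AEAA_high 1 the count of genes that rose with dose was 5 on the deposited TPM and 13 after scaling. The shares of all genes in those fits are not given here, so the counts cannot be read as particular to proteasome genes.

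Within groups, most subunits varied together from lung to lung. Over the 24 libraries, after subtracting group means from the scaled log2 values, each alpha-ring gene had a correlation with the mean of the other proteasome genes of 0.84 to 0.99, each constitutive beta-ring gene of 0.93 to 0.97, and each ATPase of 0.73 to 0.97. These are descriptions over libraries that share the same scaling. The same correlation was not computed for genes outside the list, so the values cannot be read as particular to proteasome genes. A few genes did not follow: the base chaperone Psmd5 (−0.20), Psmf1 (−0.15), Psmg2 (−0.05) and Psmc3ip (−0.02). Psme3ip1 (0.39), Psmd9 (0.45), Psme2b (0.51) and Psme4 (0.57) followed loosely after scaling. On the deposited TPM these 4 had 0.04, 0.02, 0.45 and 0.32, and Psmc3ip had −0.48. Alpha-ring genes then had 0.69 to 0.96, constitutive beta-ring genes 0.86 to 0.96, and ATPases 0.56 to 0.95.

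After scaling, the libraries with little Cxcl2 lay below the rest of their group for most of the proteasome genes. In AEAA_high, libraries 1 and 4 were the 2 lowest of the group for all 14 core and all 17 19S genes after scaling, and for 40 of the 46 proteasome genes, against 29.7% of all genes. In AEAA_low, library 1 was the lowest for 40 of 46 after scaling and for 36 on the deposited TPM, against 29.1% and 20.7% of all genes. In LPS, libraries 2 and 4 were the 2 lowest for 35 of 46 after scaling but for 18 of 46 on the deposited TPM, against 22.5% and 12.6% of all genes. In AEAA_mid, libraries 1 and 4 were the 2 lowest for 27 of 46 after scaling and for 12 on the deposited TPM, against 18.9% and 12.0%. Fits without these 7 libraries are no test of the groups, since the libraries were picked by a measured response after the data were seen. They called 45 genes higher in LPS than Control, against 54.6% of all genes, and after scaling 21 higher and 2 lower, against 24.2% and 23.3%. In AEAA_high against LPS they called 13 genes higher and 1 lower, against 4.87% and 29.1%, and after scaling 28 and 0, against 14.1% and 10.7%. In AEAA_low against LPS they called 1 higher and 2 lower, against 1.95% and 10.1%, and after scaling 5 and 0, against 3.79% and 2.42%.

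PA28 varied most from lung to lung. Psme2 had the widest spread of the tested proteasome genes within groups, with a pooled SD of 0.649 on the log2 scale, followed by Psme2b with 0.508 and Psme1 with 0.343. The mean of Psme1 and Psme2 was 162 ± 19.7 TPM (SD, n = 4) in Control, 257 ± 73.4 in LPS, 353 ± 140 in AEAA_low, 312 ± 79.4 in AEAA_mid and 315 ± 141 in AEAA_high (SD, n = 5 each). Psme2 read 191, 293, 329, 698 and 399.7 TPM in AEAA_low, 299, 388, 391, 174 and 349.7 TPM in AEAA_mid and 139, 604, 478, 162 and 377 TPM in AEAA_high. The lowest values at each dose, AEAA_low 1, AEAA_mid 4 and AEAA_high 1 and 4, were all libraries with little Cxcl2. Within groups, the scaled values of Psme1 and Psme2 had correlations of 0.89 and 0.93 with the mean of the other proteasome genes. Those with the immunoproteasome gene Psmb8 were 0.96 and 0.87, over 24 libraries. Core genes also followed Psmb8, from 0.60 for Psma3 to 0.86 for Psma5. The 19S subunits did so from 0.54 for Psmc6 to 0.81 for Psmc3, Psmc5 and Psmd7. Genes outside the list were not correlated with Psmb8, so these values cannot be read as particular to proteasome genes.

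Psmb8, the immunoproteasome's counterpart of Psmb5, read 77.6, 98, 80.3 and 72.5 TPM in Control and 206, 138, 251, 116 and 207 TPM in LPS, without overlap, a difference of 1.10 ± 0.40 (SE, adjusted p = 0.022) and 0.44 (adjusted p = 0.46) after scaling. It was the only one of the 3 immunoproteasome genes that rose on the deposited TPM; Psmb9 differed by 0.18 ± 0.32 (SE, adjusted p = 0.65), or −0.47 (adjusted p = 0.29) after scaling, and Psmb10 by 0.57 ± 0.31 (SE, adjusted p = 0.11), or −0.09 (adjusted p = 0.86). No immunoproteasome gene passed after scaling in limma, and none had an unadjusted p of 0.05 or less. The ratio of the 3 immunoproteasome genes to their constitutive counterparts Psmb5, Psmb6 and Psmb7 was 0.496 ± 0.0414 (SD, n = 4) in Control and 0.542 ± 0.122 (SD, n = 5) in LPS, and it reached 1.14 in AEAA_low 4 and 1.23 in AEAA_mid 3. Of 13 interferon-gamma response genes, 8 rose in LPS on the deposited TPM, where 56.2% of all genes did, and none after scaling in limma, where 1 had an unadjusted p of 0.05 or less. Tap1, a peptide transporter gene, differed by 1.45 ± 0.47 (SE, adjusted p = 0.011), or 0.80 (adjusted p = 0.22) after scaling. The largest was Cxcl10 with 3.50 ± 1.39 (SE, adjusted p = 0.035), or 2.99 (adjusted p = 0.11) after scaling, and B2m, the invariant chain of class I molecules, differed by 1.29 ± 0.32 (SE, adjusted p = 0.0016), or 0.62 (adjusted p = 0.19).

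Of 15 tested genes for other proteasome parts and regulators, 12 rose and none fell in LPS on the deposited TPM (12 had an unadjusted p of 0.05 or less), and 3 rose and 4 fell after scaling; the shares of all genes were 56.2% on the deposited TPM, and 13.8% and 14.2% after scaling. Nfe2l1, the NRF1 gene itself, read 58.3, 84.2, 72.7 and 84.2 TPM in Control and 193, 137, 201, 156 and 191 TPM in LPS. The groups did not overlap, and the difference was 1.22 ± 0.13 (SE, adjusted p = 1.3e-07), or 0.56 (adjusted p = 0.0065) after scaling. Ube3c, a ubiquitin ligase that works at the proteasome, differed by 1.17 ± 0.10 (SE, adjusted p = 3.5e-08), or 0.55 (adjusted p = 8.6e-05) after scaling. Adrm1, a 19S ubiquitin receptor that the naming rule misses, differed by 1.15 ± 0.16 (SE, adjusted p = 3.6e-06), or 0.49 (adjusted p = 0.05), and Zfand2a, a stress-inducible proteasome-associated protein, by 1.00 ± 0.14 (SE, adjusted p = 4.5e-06), or 0.37 (adjusted p = 0.067). Sem1, the smallest 19S subunit, also outside the naming rule, fell after scaling by 0.83 on the log2 scale (adjusted p = 0.0046), with −0.18 ± 0.15 (SE, adjusted p = 0.34) on the deposited TPM. In AEAA_high against LPS, 5 of these 15 genes were lower and 1 higher on the deposited TPM, against 25.5% and 2.05% of all genes. After scaling none was lower and 1 higher, against 3.27% and 5.67%, and 5 had an unadjusted p of 0.05 or less. Nfe2l1 differed there by −0.49 ± 0.12 (SE, adjusted p = 0.0057), or −0.18 (adjusted p = 0.45) after scaling, and Ube3c by −0.44 ± 0.09 (SE, adjusted p = 0.0029), or −0.14 (adjusted p = 0.26). Sem1 was the higher gene, with 0.59 ± 0.15 (SE, adjusted p = 0.0065), or 0.90 (adjusted p = 0.0062) after scaling.

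Tested here were 15 genes for ubiquitin supply and the shuttles that bring substrates to the proteasome. In LPS 14 rose and none fell on the deposited TPM, against 56.2% and 1.86% of all genes. An unadjusted p of 0.05 or less was found for 14. After scaling 7 rose and 2 fell, against 13.8% and 14.2% of all genes. Among the genes that rose was the shuttle gene Rad23b with 1.54 ± 0.13 (SE, adjusted p = 3.5e-08), or 0.88 (adjusted p = 9e-05) after scaling. Another was Uba1, the main ubiquitin-activating enzyme, with 1.45 ± 0.12 (SE, adjusted p = 3.5e-08), or 0.79 (adjusted p = 0.00034). Nploc4, a cofactor of the unfolding enzyme VCP, differed by 1.26 ± 0.14 (SE, adjusted p = 2.1e-07), or 0.62 (adjusted p = 0.0027) after scaling. In AEAA_high against LPS, 9 of the 15 were lower and 2 higher on the deposited TPM, where 25.5% and 2.05% of all genes were. After scaling 1 was lower and 2 higher, against 3.27% and 5.67%. Rad23b differed by −0.61 ± 0.12 (SE, adjusted p = 0.0021), or −0.29 (adjusted p = 0.14) after scaling, and Uba1 by −0.58 ± 0.12 (SE, adjusted p = 0.0022), or −0.27 (adjusted p = 0.2). Rps27a, which encodes a fusion of ubiquitin and a ribosomal protein, was higher, by 0.60 ± 0.11 (SE, adjusted p = 0.0018), or 0.92 (adjusted p = 0.0018) after scaling.

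Summed over the 48 genes, the proteasome took 0.297% ± 0.0138 of all TPM in Control lungs (SD, n = 4). It took 0.531% ± 0.0441 in LPS, 0.541% ± 0.0831 in AEAA_low, 0.529% ± 0.0433 in AEAA_mid and 0.564% ± 0.13 in AEAA_high (SD, n = 5 each). All challenged groups stood above Control and their spreads overlapped one another. The 5 proteasome pseudogenes listed in the table averaged at most 0.055 TPM.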

How the data were processed

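Whole-lung RNA (rRNA-depleted total RNA, paired-end) of 24 mice was measured as 1 table of TPM. The deposited TPM values were made by the authors with HISAT2, StringTie and RSEM on GRCm39, per the submitters' processing notes, which also name DESeq2; versions, annotation and strand setting are not given in the sources used here. TPM keeps no depth, so a count test was not possible. TPM was taken as log2(TPM + 1); the 17823 of 78298 genes with TPM of at least 1 in at least 4 libraries were fitted over all 24 libraries with limma 3.58.1 (R 4.3.3; trend and robust settings), with Benjamini-Hochberg adjustment over all genes and calls at an adjusted p of 0.05 or less. Scaled values were TPM divided by median-of-ratios size factors. A lowess trend (span 0.3) over the longest GENCODE M21 transcript was removed in a further alternative, chosen after the data were seen; 1416 tested genes had no length and were shifted by the library median. The scripts were tested on simulated data. Members and gene lists were chosen with earlier results of these data known. Genes were named by rule: in each list of proteasome genes the 2 largest, the smallest and the most and least abundant in LPS against Control, every activator and inhibitor, and those past the threshold in the extract comparisons (the 2 smallest p where none passed). Psmb4, Psmb5, Psmd1 under LPS, Psmd2, Psmd4, Psmd5, Psmd10, Psmd14, genes called after scaling and the correlations were chosen after their values were seen. The titles call the samples biological replicates. No 2 libraries held identical values. A few genes of the other lists are not reported here by name.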

Additional observations from a re-analysis of the deposited data

Results flagged for a closer look

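Of 155 sets of values from 4 or 5 libraries that were examined, 10 had a highest or lowest library apart from the rest by Dixon's test at the 95% level; chance marks about 1 in 20. In Control, library 1 was lowest for Psmd11 (21.3 TPM) and Psmc2 (39.35 TPM). In LPS, library 5 was highest for Psmd8 (202.88 TPM). In AEAA_mid, library 3 was highest for Psme2b (25.4 TPM) and lowest for Psme3ip1 (27.39 TPM), and the lowest Psma7 (227.66 TPM) and the highest Psmg1 (26.0 TPM) also stood apart. The ratio of immunoproteasome to constitutive catalytic genes was highest in 1 library of Control (0.557), in AEAA_low 4 (1.14) and in AEAA_mid 3 (1.23).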

How the results depend on the processing

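The count of genes higher in LPS than Control was 44 on the deposited TPM, 9 after scaling and 23 with the length trend removed, and 42 to 44 (7 to 12 after scaling) when each library was left out in turn; the count lower was 0, and after scaling 1, with 0 to 1 over the leave-outs. In AEAA_low the count lower went from 3 to 0 after scaling and with the length trend removed, to 1 without the filter on low values, and ranged from 1 to 5 over the leave-outs, and the count higher from 0 to 1. In AEAA_high the count higher went from 1 to 5 after scaling, 2 without Scgb1a1, and 0 without the filter or with the compared groups alone, and ranged from 0 to 9 (1 to 21 after scaling). The count lower there went from 4 to 0 after scaling and with the length trend removed, 2 without the filter and 1 with the compared groups alone, and ranged from 2 to 6. The dose trend's single lower gene was lost (0) after scaling, with the length trend removed, without the filter, with a pseudocount of 0.1, with the compared groups alone and with the replicate block. Over the leave-outs it ranged from 0 to 2, and the count higher from 0 to 5 (0 to 13 after scaling). Without the 7 libraries of low Cxcl2, picked after the data were seen, the counts were 21 higher and 2 lower in scaled LPS. They were 1 higher (5 after scaling) in AEAA_low, and 13 higher (28 after scaling) and 1 lower in AEAA_high. In the dose trend they were 9 higher (24 after scaling) and 0 lower. The share of all genes in that dose trend is not given here, so its counts cannot be read as particular to proteasome genes. The causes were not tested, and shares of all genes are not given for the fits that left out 1 library.

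With the replicate number as a block, 42 genes were higher in LPS than Control, and the scaled lower count was 0 in place of 1. The numbers were not taken to pair the libraries: 20 of 46 same-numbered pairs had deviations correlated above 0.1 (−0.447 to 0.645), and 23 of 92 best matches were with the same number. All 5 pairs of AEAA_mid with AEAA_high were above 0.1 (0.18 to 0.522). These groups were not set against each other directly, but both enter the dose trend. With the replicate block the dose trend had 0 genes lower and 0 higher. No pair of groups compared directly here had all its pairs above 0.1.

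Of 633 alternatives for named genes, 497 kept direction and side of the threshold, 118 lost the call, 1 gained it and 17 changed sign. In LPS against Control, scaling turned the log2 difference to −0.22 for Psma2, −0.36 for Psma3, −0.18 for Psmb1, −0.03 for Psmb6, −0.21 for Psmd9, −0.16 for Psme2, −0.0031 for Psmg1, −0.39 for Psmg2 and −0.17 for Psmg4. Removing the length trend turned it to −0.16 for Psma2, −0.29 for Psma3, −0.03 for Psmb1, −0.16 for Psmd9 and −0.10 for Psmg2, and leaving out Scgb1a1 to −0.10 for Psma3 and −0.14 for Psmg2. For AEAA_high against LPS, scaling turned Psmd1 to 0.0016. Depth is unknown, so differences in low genes could not be set against counting error.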
